A study of Mus musculus with 10 samples.

Results

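The 10 genes described here encode transcription factors that make and keep a cell a B-lineage progenitor, namely Ebf1, Pax5, Tcf3, Ikzf1, Ikzf3, Foxo1, Bcl11a, Pou2af1, Irf4 and Irf8. They were taken from a fixed list of names, and every non-control probe whose transcript maps to one of them was used, which gave 20 of 56605 probes on the array. All 20 probes were well above background in the mutant channel of all 8 single-sample arrays and in the wild-type channel of all 10 arrays, so the filter on dim probes removed none. RNA came from bone marrow colonies transformed by BCR-ABL, a leukaemia-causing fusion tyrosine kinase made by the Philadelphia chromosome. The groups were 4 Cdk6-/- samples, which lack the G1 kinase CDK6, 4 Cdk6-K43M samples, which carry CDK6 without kinase activity, and 1 pool of 4 wild-type (Cdk6+/+) samples. Donor mice of every group were 6 weeks old, their marrow was transduced with retrovirus, harvested after 24 h, and grown for 10 days in methylcellulose free of growth factors. Each mutant sample was hybridised in Cy5 against the wild-type pool in Cy3, and 1 further array per genotype held its pooled RNA with the dyes exchanged. The labels say that colonies were picked individually and give no number of animals, cultures or colonies per sample, so p-values measure only the spread between these samples.

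B-lineage identity is set by a cascade of such factors. TCF3 (E2A) and FOXO1 act early and switch on EBF1, EBF1 and PAX5 then hold the B-cell programme and shut out other fates, and Ikaros (IKZF1) and Aiolos (IKZF3) end the proliferation driven by the pre-B-cell receptor together with IRF4 and IRF8. POU2AF1 (OBF-1) is a B-cell coactivator that binds the octamer factors OCT1 and OCT2, and BCL11A is a zinc-finger protein needed for early lymphoid cells. In human BCR-ABL-positive lymphoblastic leukaemia, IKZF1 and PAX5 are among the genes most often deleted.

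The labelled material was bone marrow, and B-lineage progenitor transcripts were present throughout. All 10 measured progenitor markers, among them Cd79a, Vpreb1 and Igll1, were well above background in both genotypes and in the wild-type pool. Summed normalised intensity over these markers ran between 357911 and 416395 in Cdk6-/-, between 326831 and 383945 in Cdk6-K43M, and from 319868 to 393737 in the wild-type channels. In the limma fit described below, 1 of the 10 rose and 1 fell in Cdk6-/-, where 7.12% of all genes were called. In Cdk6-K43M 1 rose and 4 fell, beside 20.3% of all genes. Ly6d changed most, with -1.31 in Cdk6-/- (adjusted p = 0.0246) and -2.80 in Cdk6-K43M (adjusted p = 0.000213). Of 18 granulocyte, monocyte and macrophage markers, 9 were detected in Cdk6-/-, 10 in Cdk6-K43M and 15 in the wild-type pool, and their summed intensity was 6774 to 8603, 6642 to 22247 and 10702 to 12273. The upper value in Cdk6-K43M belonged to replicate 4, and Ltf and Prtn3, both neutrophil granule genes, were not above background in any channel. Of the 15 markers of this list kept by the filter, 7 fell, none rose and 8 did not pass in each genotype. Ngp, Camp and Mpo, among those that fell, were well above background on 0 single-sample arrays of either genotype, and Mrc1 on 2 of each. The filter kept these through the wild-type channels alone, so they could hardly be called other than lower, and the count adds no support. The fitted ratio of S100a9 was -4.16 in Cdk6-/- and -3.94 in Cdk6-K43M, and that of S100a8 was -3.16 and -2.94. S100a8 was well above background on 0 Cdk6-/- and 1 Cdk6-K43M single-sample arrays, so its ratios rest on weak mutant signal. Of 8 mature B and plasma cell markers, 7 were detected in each group, and their summed intensity ranged over 9554 to 17768, 12079 to 18733 and 20888 to 27625 for Cdk6-/-, Cdk6-K43M and wild type. The single Cdk6 probe had a fitted log2 ratio of -0.41 in Cdk6-/- (adjusted p = 0.0364) and 0.35 in Cdk6-K43M (adjusted p = 0.0296) against wild type. It read -0.37, -0.40, -0.18 and 0.002 in Cdk6-/- samples and -0.67 in the pool. In Cdk6-K43M it read 0.31, 0.40, 0.33 and 0.83, and 0.33 in the pool. The sources used here do not place this probe relative to the deletion, so it does not check the labels. Log2 ratios of samples correlated across probes with r between 0.319 and 0.587 within Cdk6-/- and between 0.325 and 0.666 within Cdk6-K43M, and probes are not independent replicates. In bulk RNA, fewer cells of a type and less RNA per cell cannot be told apart.

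Irf4 was the member with the lowest ratio in both genotypes, at about 0.533 times the wild-type level in Cdk6-/- and 0.476 times in Cdk6-K43M. In Cdk6-/-, Irf4 fell and Bcl11a rose, and the other 8 genes did not pass the test. In Cdk6-K43M, Irf4, Pou2af1, Ikzf3 and Ikzf1 fell, Ebf1 rose, and the other 5 did not pass. Each gene was called by its brightest probe at an adjusted p below 0.05 over all 28182 probes kept. The 2 of 10 genes called in Cdk6-/- stand beside 7.12% of all 22012 genes (3.33% higher, 3.79% lower), and the 5 of 10 called in Cdk6-K43M beside 20.3% (9.93% higher, 10.4% lower). The median log2 ratio of the 10 genes was 0.03 in Cdk6-/- and -0.16 in Cdk6-K43M, against 0.0014 and -0.01 over all genes. Both comparisons share the wild-type pool, whose own spread does not enter the tests. With median centring in place of loess, which moved the median Cdk6-K43M ratio of all probes to 0.11, Irf4, Pou2af1 and Ikzf3 fell there while Ebf1, Tcf3 and Bcl11a rose, so directions in Cdk6-K43M are relative to the scaling. Of all Cdk6-K43M probe calls, 49.7% were higher with loess and 88.1% with median centring.

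**Figure D1:**
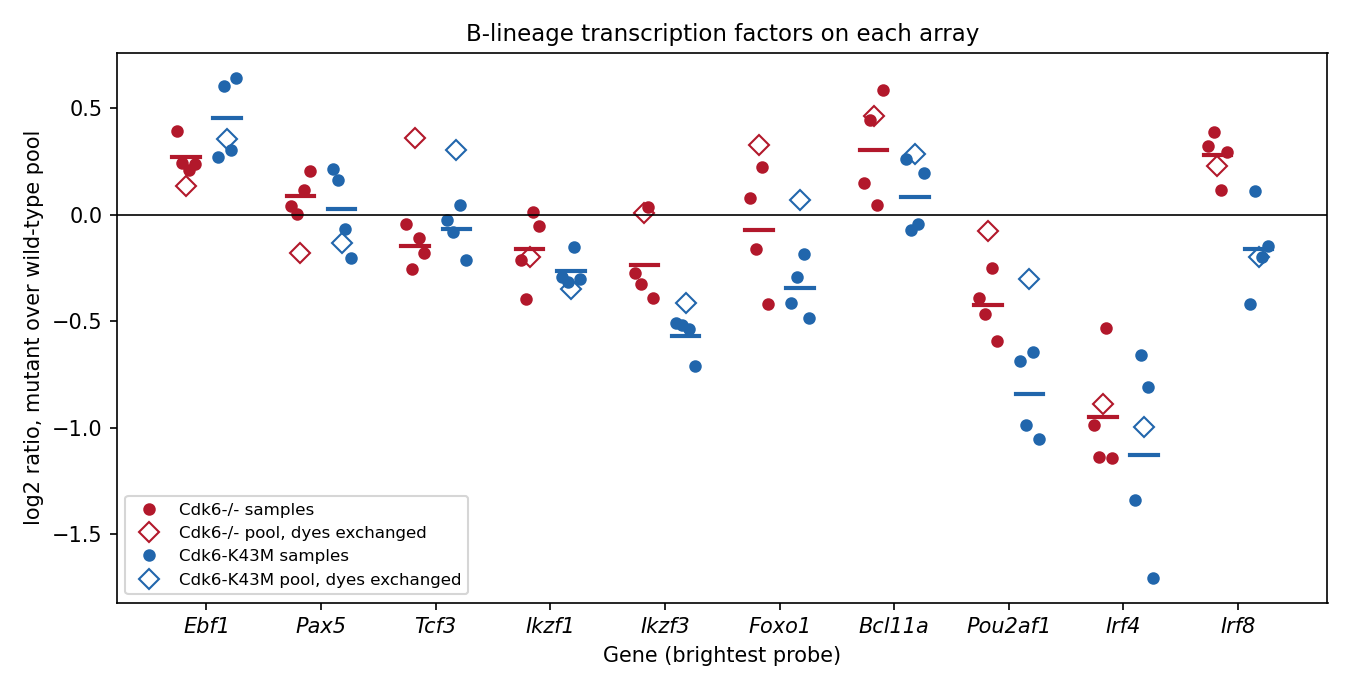
Log2 ratio of mutant over wild-type pool (vertical axis) for the brightest probe of each gene, with Cdk6-/- in red on the left and Cdk6-K43M in blue on the right of each gene. Dots are the 4 samples, bars their means and open diamonds the pooled RNA with dyes exchanged; Irf4 lies below -0.5 on all 10 arrays.

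IRF4 is an interferon regulatory factor that acts with PU.1 or SPIB at the immunoglobulin light chain genes and is later required for plasma cells. Its promoter window (250 bases upstream of the RefSeq start in GRCm38.p6, chr13:30748983-30749232, plus strand) is printed because Irf4 had the lowest ratios of the set. It holds no match to any of the 6 motifs searched on both strands, and so has no capitals.
Irf4 promoter: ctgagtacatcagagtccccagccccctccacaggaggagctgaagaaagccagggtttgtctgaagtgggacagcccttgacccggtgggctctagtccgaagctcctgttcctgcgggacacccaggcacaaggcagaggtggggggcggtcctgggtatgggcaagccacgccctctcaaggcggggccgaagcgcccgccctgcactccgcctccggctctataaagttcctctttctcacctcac
The motifs and the share of 32851 promoter windows of this length that hold each were the E-box CANNTG (66.2%), the Ikaros core TGGGAA (21.6%), the octamer ATTTGCAT (1.60%), the interferon-response type, GAAA and again GAAA with any 2 bases between (2.98%), the STAT type TTCNNNGAA (7.02%) and the FOXO type GTAAACA (3.17%). No match says only that these letters are not in this window.

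On the brightest Irf4 probe (A_55_P2109445) the log2 ratios were -0.99, -1.14, -0.53 and -1.14 in Cdk6-/- samples 1 to 4 and -0.89 in the Cdk6-/- pool. In Cdk6-K43M they were -1.34, -0.66, -0.81 and -1.70, and -0.996 in the pool. Every array read Irf4 below wild type, Cdk6-K43M replicate 4 was lowest, and the genotypes overlapped. In the fit, Cdk6-/- fell by 0.91 (log2, SE 0.16, adjusted p = 0.0122) and Cdk6-K43M fell by 1.07 (SE 0.16, adjusted p = 0.00167). As normalised log2 intensity on the single-sample arrays, the probe read 11.08 ± 0.40 in Cdk6-/- (SD, n = 4) and 10.87 ± 0.47 in Cdk6-K43M (SD, n = 4). The wild-type pool read 12.01 ± 0.12 (SD) on these arrays, with the dye-swapped arrays left out. The other Irf4 probe passed in the same direction, with -0.47 (SE 0.10, adjusted p = 0.027) in Cdk6-/- and -0.65 (SE 0.10, adjusted p = 0.00226) in Cdk6-K43M. Its Cdk6-/- call was lost with processed signals, median centring, slide as a block and widened standard errors, and without Cdk6-/- replicate 1 or 2 (adjusted p = 0.0581 to 0.236 over these). On the brightest probe the Cdk6-/- call was lost with slide as a block (-0.88, adjusted p = 0.0512) and with wider standard errors that allow for spread among the pooled wild-type samples (adjusted p = 0.144), whereas the Cdk6-K43M call held in all 19 alternatives. Cdk6-K43M replicate 4, lowest for Irf4, also had the highest myeloid marker sum, and the part of other cells in these ratios was not tested.

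IRF8 is the close relative of IRF4 that also directs monocyte and dendritic cell fate. Its log2 ratios were 0.32, 0.39, 0.12 and 0.30 in Cdk6-/- and 0.23 in the pool, against -0.42, 0.11, -0.20 and -0.15 in Cdk6-K43M and -0.20 in the pool. All Cdk6-/- arrays lay above wild type, 3 of 4 Cdk6-K43M samples lay below it, and the lowest Cdk6-/- sample (0.119) was just above the highest Cdk6-K43M sample (0.114). The fitted ratio was 0.26 (SE 0.08, adjusted p = 0.0783) in Cdk6-/- and -0.18 (SE 0.08, adjusted p = 0.132) in Cdk6-K43M, and neither passed. The Cdk6-K43M value was 0.07 with median centring in place of loess. Both would have passed without Cdk6-K43M replicate 2, at 0.27 (adjusted p = 0.0361) in Cdk6-/- and -0.24 (adjusted p = 0.0393) in Cdk6-K43M. The window before its first RefSeq start (GRCm38.p6, chr8:120736108-120736357, plus strand) is shown because Irf8 had the greatest difference between the genotypes among brightest probes, and its 2 STAT-type matches are in capitals.
Irf8 promoter: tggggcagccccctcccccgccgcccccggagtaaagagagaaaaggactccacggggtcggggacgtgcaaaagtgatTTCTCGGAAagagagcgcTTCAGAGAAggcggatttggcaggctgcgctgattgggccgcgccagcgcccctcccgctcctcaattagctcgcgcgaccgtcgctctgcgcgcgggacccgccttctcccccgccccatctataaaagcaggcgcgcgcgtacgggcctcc
Of the 6 other interferon regulatory factor genes measured, Irf3, which responds to viral nucleic acid, rose in Cdk6-/- (0.27, adjusted p = 0.0332) and in Cdk6-K43M (0.25, adjusted p = 0.0222). Irf2, an antagonist of IRF1, fell by 0.26 in Cdk6-K43M (adjusted p = 0.0102), a call lost with median centring and with widened standard errors. Both Irf3 calls were lost without swapped arrays and with widened standard errors, and the Cdk6-/- call also with median centring, processed signals and slide as a block. No other gene of this family passed, and the medians of the 6 were 0.18 in Cdk6-/- and -0.21 in Cdk6-K43M.

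Pou2af1 had the smallest p of the 10 genes in Cdk6-K43M. The Pou2af1 log2 ratios were -0.39, -0.47, -0.25 and -0.59 in Cdk6-/- and -0.08 in the pool, against -0.69, -0.99, -0.64 and -1.06 in Cdk6-K43M and -0.30 in the pool. The 4 Cdk6-/- samples all lay above the 4 Cdk6-K43M samples and below wild type, and in both genotypes the pool with exchanged dyes was nearest to 0. In Cdk6-K43M the fitted level fell by 0.60 (SE 0.08, adjusted p = 0.0011), and it ranged from -0.84 to -0.30 over the alternatives, passing in all 19. In Cdk6-/- it was -0.22 (SE 0.08, adjusted p = 0.132), which did not pass, but on the 4 single samples without a dye term it was -0.42 (adjusted p = 0.0131). The dye term of this probe was -0.22 (adjusted p = 0.079). In log2 intensity on the single-sample arrays, Cdk6-K43M was lowest (14.35 ± 0.08, SD, n = 4) and Cdk6-/- came next (14.68 ± 0.16, SD, n = 4). Wild type was highest on these arrays (15.15 ± 0.14, SD), and this order leaves out the arrays with exchanged dyes. Neither step next to Cdk6-/- passed its test. The window before the Pou2af1 start (GRCm38.p6, chr9:51213440-51213689, plus strand) is shown because this gene fell with the other factors in Cdk6-K43M, with its 2 E-box matches in capitals. It holds none of the other 5 motifs, the octamer among them.
Pou2af1 promoter: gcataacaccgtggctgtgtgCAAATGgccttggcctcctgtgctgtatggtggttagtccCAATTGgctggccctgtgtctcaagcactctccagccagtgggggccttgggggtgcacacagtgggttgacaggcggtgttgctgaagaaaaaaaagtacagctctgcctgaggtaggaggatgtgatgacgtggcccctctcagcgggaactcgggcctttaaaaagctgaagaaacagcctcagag
The octamer factors that POU2AF1 binds were also measured. Pou2f1 (OCT1) was -0.16, -0.17, 0.03 and -0.29 in Cdk6-/- samples and -0.59, -0.64, -0.45 and -1.01 in Cdk6-K43M samples. It fell by 0.68 (SE 0.08, adjusted p = 0.000713) in Cdk6-K43M, where Pou2f2 (OCT2) fell by 0.28 (SE 0.09, adjusted p = 0.0496), and neither passed in Cdk6-/-. The Pou2f2 call was lost in each of 5 other settings tried on the lists.

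Ikaros and Aiolos were lower in Cdk6-K43M. For Ikzf3 the brightest probe (A_55_P2504196) read -0.27, -0.32, 0.04 and -0.39 in Cdk6-/- and 0.01 in the pool, against -0.51, -0.52, -0.53 and -0.71 in Cdk6-K43M and -0.41 in the pool. All Cdk6-/- samples lay above all Cdk6-K43M samples, and 3 of them lay below wild type. In Cdk6-K43M, Ikzf3 fell by 0.48 (SE 0.07, adjusted p = 0.00166), and it was -0.13 (SE 0.07, adjusted p = 0.297) in Cdk6-/-. Over the 19 alternatives the Cdk6-K43M value passed throughout, from -0.57 to -0.28. A dimmer Ikzf3 probe also fell in Cdk6-K43M (-0.26, adjusted p = 0.00878), a call lost with median centring (-0.14), without swapped arrays (-0.08) and with widened standard errors. The third was -0.20 there (adjusted p = 0.0858). In Cdk6-/- these 2 probes read -0.12 and 0.06, and neither passed.

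For Ikzf1 the brightest probe read -0.21, -0.39, 0.01 and -0.05 in Cdk6-/- and -0.20 in the pool, against -0.29, -0.31, -0.15 and -0.30 in Cdk6-K43M and -0.35 in the pool. The genotypes overlapped, and Cdk6-K43M arrays were all below wild type. The fitted Ikzf1 level in Cdk6-K43M fell by 0.30 (SE 0.07, adjusted p = 0.012), and it was -0.19 (adjusted p = 0.121) in Cdk6-/-. The Cdk6-K43M call was lost with median centring (-0.10, adjusted p = 0.376) and with widened standard errors (adjusted p = 0.1). Its other probes did not pass, and they disagreed in sign between the genotypes. One of them, A_52_P618569, read 0.48, 0.26, -0.09 and 0.58 in Cdk6-/- against -0.15, 0.16, -0.28 and -0.67 in Cdk6-K43M, with fitted ratios of 0.27 (adjusted p = 0.232) and -0.25 (adjusted p = 0.22). The third Ikzf1 probe, from another transcript, had 0.06 and -0.22 (adjusted p = 0.0787). Ikzf5, the family member Pegasus, fell by 0.35 in Cdk6-K43M (SE 0.07, adjusted p = 0.00806), a call lost with median centring and with widened standard errors.

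**Figure D2:**
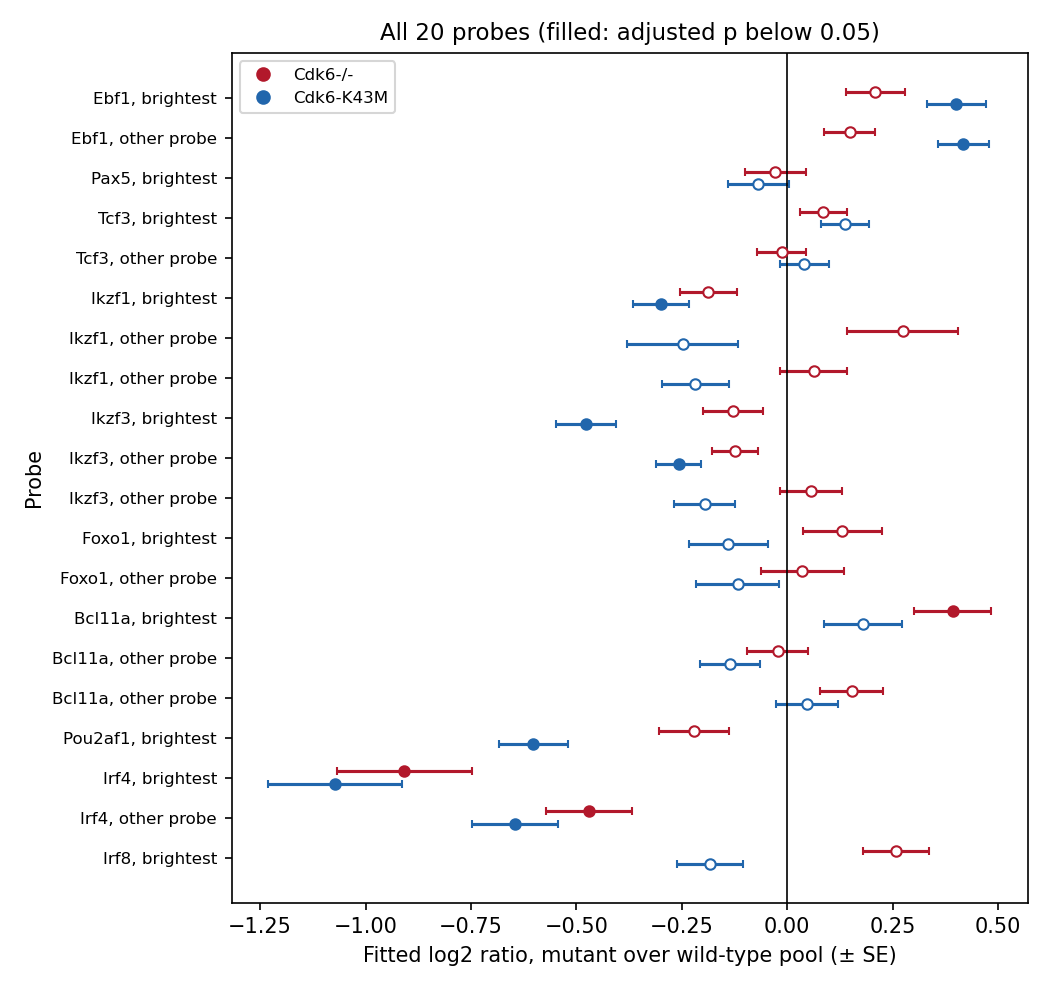
Fitted log2 ratio over the wild-type pool (horizontal axis, bars ± SE) for all 20 probes, Cdk6-/- in red above Cdk6-K43M in blue. Filled points passed an adjusted p below 0.05: 3 of 20 in Cdk6-/- and 8 of 20 in Cdk6-K43M, against 6.8% and 20.3% of all probes, while the probes of Ikzf1 and Bcl11a differ among themselves.

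Ebf1 went the other way, and it was the member that rose in Cdk6-K43M. EBF1 opens chromatin at B-cell genes. Its brightest probe (A_55_P2734622) read 0.39, 0.24, 0.21 and 0.24 in Cdk6-/- and 0.14 in the pool, against 0.27, 0.60, 0.30 and 0.64 in Cdk6-K43M and 0.36 in the pool. All arrays lay above wild type and the genotypes overlapped. In Cdk6-K43M, Ebf1 rose by 0.40 (SE 0.07, adjusted p = 0.00373), or 1.32-fold, and it was 0.21 (SE 0.07, adjusted p = 0.102) in Cdk6-/-, where it passed on single samples without a dye term (0.27, adjusted p = 0.0422). In Cdk6-K43M the other Ebf1 probe rose by 0.42 (SE 0.06, adjusted p = 0.00147), and it was 0.15 (adjusted p = 0.164) in Cdk6-/-. On both probes the Cdk6-K43M call held in every alternative tried, with 0.36 to 0.63 on the brightest.

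Tcf3, Pax5 and Foxo1 did not pass in either genotype. Pax5, the factor that commits cells to the B lineage, had 0.04, 0.00, 0.11 and 0.20 in Cdk6-/- and -0.18 in the pool, against 0.22, 0.16, -0.06 and -0.20 in Cdk6-K43M and -0.13 in the pool. The samples lay on both sides of wild type in Cdk6-K43M. Its fitted log2 ratio in Cdk6-/- was -0.03 (95% interval -0.19 to 0.13), and in Cdk6-K43M it was -0.07 (-0.23 to 0.09). The brightest Tcf3 probe ran with the dye: it read -0.04, -0.25, -0.11 and -0.18 in Cdk6-/- samples but 0.36 in the pool with dyes exchanged, and -0.02, -0.08, 0.04 and -0.21 in Cdk6-K43M samples but 0.30 in the pool. Its dye term was -0.22 (adjusted p = 0.0188), and the fitted ratios were 0.09 (adjusted p = 0.384) in Cdk6-/- and 0.14 (adjusted p = 0.116) in Cdk6-K43M. With median centring the Cdk6-K43M value passed at 0.36 (adjusted p = 0.00389), and without the swapped arrays both signs turned (-0.15 and -0.07). Foxo1, which drives the recombination genes and Il7r, read 0.08, -0.16, 0.22 and -0.42 in Cdk6-/- and 0.33 in the pool, against -0.41, -0.29, -0.19 and -0.48 in Cdk6-K43M and 0.07 in the pool. Its fitted ratios were 0.13 (adjusted p = 0.428) and -0.14 (adjusted p = 0.339), and without the swapped arrays Foxo1 passed in Cdk6-K43M at -0.34 (adjusted p = 0.0334).

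Bcl11a gave different answers by probe. The brightest (A_55_P1958275) read 0.15, 0.45, 0.05 and 0.58 in Cdk6-/- and 0.46 in the pool, against 0.26, -0.07, -0.04 and 0.19 in Cdk6-K43M and 0.29 in the pool. All Cdk6-/- arrays lay above wild type, and the genotypes overlapped. In Cdk6-/- it rose by 0.39 (SE 0.09, adjusted p = 0.0344), and it was 0.18 (SE 0.09, adjusted p = 0.205) in Cdk6-K43M. Its 2 other probes, matched to a different RefSeq transcript, had -0.02 (adjusted p = 0.881) and 0.15 (adjusted p = 0.237) in Cdk6-/-. The rise was lost in 9 of 19 alternatives, among them the mean of its probes (0.17, adjusted p = 0.185), slide as a block (0.39, adjusted p = 0.0969), and leaving out Cdk6-/- replicate 1, 2 or 4 (adjusted p = 0.061, 0.0773 and 0.0541).

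None of the 10 genes passed between Cdk6-/- and Cdk6-K43M in limma's test on the 8 single-sample arrays, where 0.495% of all genes passed. In that test 3 of 10 had an unadjusted p below 0.05, beside 3125 of all 22012 genes. The difference (Cdk6-/- minus Cdk6-K43M) was above 0 in 8 of 10 genes, with a median of 0.20 against 0.01 over all genes. Irf8 had 0.44 (SE 0.12, adjusted p = 0.172, 95% interval 0.18 to 0.71), Pou2af1 0.42 (SE 0.12, adjusted p = 0.195, 0.15 to 0.69) and Ikzf3 0.33 (SE 0.11, adjusted p = 0.233, 0.09 to 0.57). On the brightest probes of these 3 genes every Cdk6-/- sample lay above every Cdk6-K43M sample, as in 4.1% of all genes, and 8.15% did not overlap in either direction. Within slides 1, 2 and 3 the Irf8 difference was 0.74, 0.22 and 0.59, that of Pou2af1 0.30, 0.60 and 0.18, and that of Ikzf3 0.24, 0.44 and 0.21. Because the samples do not overlap on these brightest probes, a difference above 0 within each slide was fixed in advance and adds no support. On both dimmer Ikzf3 probes the genotypes overlapped, with differences of 0.14 (-0.05 to 0.32) and 0.26 (0.02 to 0.51). Slides 1 and 3 held 1 single sample of each genotype and slide 2 held 2. Irf8 passed with all 10 arrays and a dye term (0.44, adjusted p = 0.0485), a fit that counts the pooled RNA again. For Irf4 the difference of 0.18 had a 95% interval of -0.36 to 0.71 and was -0.01 without Cdk6-K43M replicate 4. Ebf1 had -0.18 (-0.42 to 0.05), and its other probe -0.25 (-0.45 to -0.04, adjusted p = 0.278). Tcf3 had -0.08 (-0.27 to 0.11) and Pax5 0.06 (-0.18 to 0.30).

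**Figure D3:**
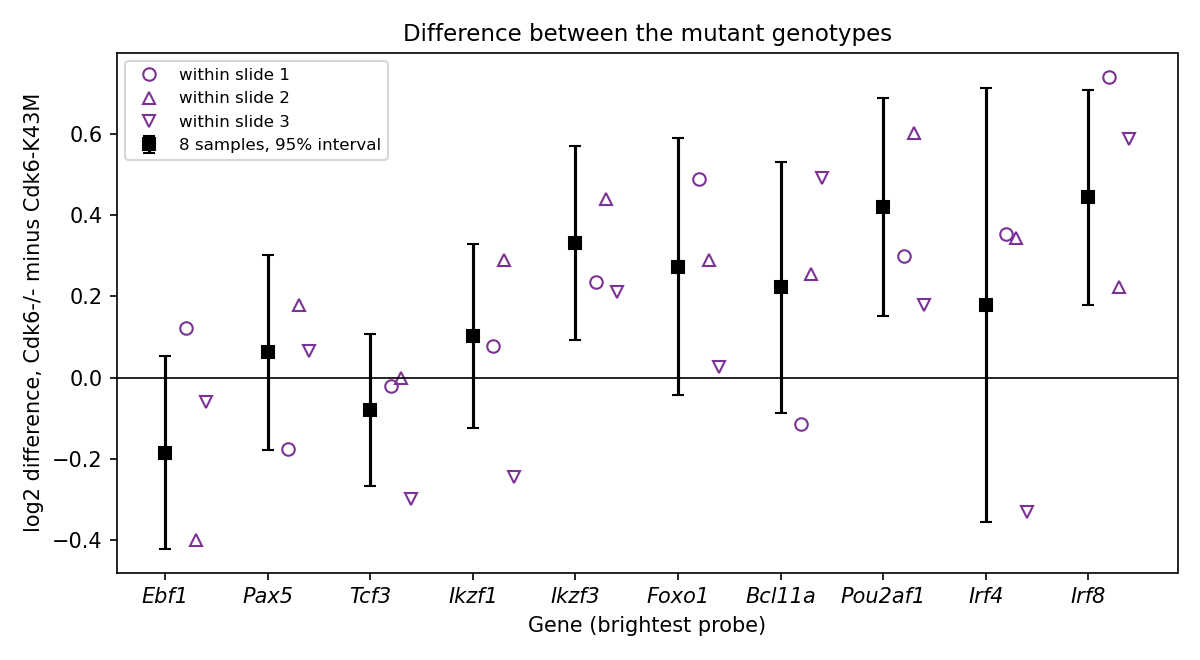
Log2 difference Cdk6-/- minus Cdk6-K43M (vertical axis) for the brightest probe of each gene, as black squares with 95% intervals over 8 samples, and as open symbols within each of the 3 slides. Irf8, Pou2af1 and Ikzf3 lie above 0 with their intervals, and no gene passed after adjustment. The within-slide signs of these 3 genes follow from samples that do not overlap between the genotypes.

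Genes related to these factors were read from 6 lists. They covered target and response genes, partner and inhibitor transcription factors, and the other interferon regulatory factor genes. List counts stand beside the 7.12% of all genes called in Cdk6-/- and the 20.3% in Cdk6-K43M. With standard errors widened for the pool, Klf2 was the only list gene that passed in Cdk6-/-. In Cdk6-K43M, Fcrla, Cd79b, Grap2, Rag2, Klf2, Pou2f1, Foxo3 and Mef2c passed in that setting, and every other list call was lost. Among 15 genes activated by E2A, EBF1 and PAX5, 1 rose, 1 fell and 13 did not pass in Cdk6-/- (median 0.09), whereas 6 fell, none rose and 9 did not pass in Cdk6-K43M (median -0.24). With median centring 3 of them fell and 4 rose in Cdk6-K43M (median 0.06), and the calls of Cd79b and Cd24a were lost. Fcrla, an Fc receptor-like protein of B cells, had -1.97 in Cdk6-/- (SE 0.30, adjusted p = 0.00701) and -2.70 in Cdk6-K43M (SE 0.30, adjusted p = 0.000424). Igll1, the surrogate light chain lambda5, rose by 0.38 (adjusted p = 0.0122) in Cdk6-/- and was 0.21 (adjusted p = 0.0526) in Cdk6-K43M. Cd79b, a signalling chain of the B-cell receptor, read -0.40, -0.52, -0.20 and -0.39 in Cdk6-/- samples and 0.02 in the pool, against -0.78, -0.79, -0.51 and -0.83 in Cdk6-K43M samples and -0.27 in the pool. Its fitted ratio in Cdk6-/- was -0.17 (adjusted p = 0.155), which did not pass, and it fell by 0.51 (SE 0.07, adjusted p = 0.000926) in Cdk6-K43M. Cd24a, a surface glycoprotein (-0.64, adjusted p = 0.00716), and Blk, a SRC-family kinase (-0.69, adjusted p = 0.0128), also fell there, as did the inhibitory coreceptor gene Cd22. Beside these, the mature B-cell marker Ms4a1 (CD20) fell by 2.67 in Cdk6-K43M (adjusted p = 0.00128) and was -1.41 in Cdk6-/- (adjusted p = 0.0517). It was the only call among the 7 mature B and plasma cell markers kept by the filter. In Cdk6-K43M 1 fell, none rose and 6 did not pass, and in Cdk6-/- none passed. In each genotype 3 of the 7 had ratios above 0. Of 9 genes repressed by PAX5, Flt3, a progenitor cytokine receptor, fell by 0.54 in Cdk6-/- (adjusted p = 0.0324), and Grap2, an adaptor of T-cell signalling, rose by 1.48 in Cdk6-K43M (adjusted p = 0.00135). The Flt3 call was also lost with median centring, with processed signals and with slide as a block.

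Targets of FOXO1 were called in both directions. Rag2, a subunit of the V(D)J recombinase, rose in both, with 0.72 in Cdk6-/- (SE 0.19, adjusted p = 0.0496) and 1.14 in Cdk6-K43M (SE 0.19, adjusted p = 0.00292), where Rag1 (0.77, adjusted p = 0.0285) and the interleukin-7 receptor gene Il7r (0.62, adjusted p = 0.0237) rose too. Klf2, a factor of lymphocyte quiescence and homing, read -1.63, -2.07, -1.73 and -1.89 in Cdk6-/- and -1.40, -0.96, -1.45 and -1.08 in Cdk6-K43M. Klf2 fell in both, with fitted ratios of -1.69 in Cdk6-/- (adjusted p = 9.02e-06) and -1.09 in Cdk6-K43M (adjusted p = 0.000102), as did the homing receptor gene Ccr7 with -1.03 in Cdk6-/- (adjusted p = 0.00767) and -0.57 in Cdk6-K43M (adjusted p = 0.0313). Sesn1, a stress-response sestrin, fell by 0.52 in Cdk6-K43M (adjusted p = 0.0221). With median centring Ccr7 and Sesn1 no longer passed in Cdk6-K43M, nor Rag2 in Cdk6-/-. Rag2 in Cdk6-/- and Sesn1 in Cdk6-K43M were also lost with slide as a block. Processed signals lost Rag2 in Cdk6-/-, and Ccr7 and Sesn1 in Cdk6-K43M. The other Rag2 probe had smaller fitted ratios, 0.19 in Cdk6-/- and 0.36 in Cdk6-K43M. In all, 1 of 13 targets rose, 2 fell and 10 did not pass in Cdk6-/-, and 3 rose, 3 fell and 7 did not pass in Cdk6-K43M.

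A list of 12 genes of the pre-B-cell receptor response under Ikaros, Aiolos, IRF4 and IRF8 was also read. In Cdk6-/-, 1 rose, 3 fell and 8 did not pass, beside 7.12% of all genes called. In Cdk6-K43M, 2 fell and 10 did not pass, no more than the 20.3% over all genes. Besides Igll1, the Cdk6-/- calls were Cdkn1a, the cell cycle inhibitor p21 (-0.80, adjusted p = 0.0112), Myc (-0.45, adjusted p = 0.0252) and Cd2, an adhesion molecule (-1.19, adjusted p = 0.0339). In Cdk6-K43M they were Cd2 (-1.32, adjusted p = 0.00892) and the chemokine receptor gene Cxcr4 (-0.31, adjusted p = 0.0469). With median centring Cd2 fell there, Cxcr4 did not pass and 3 genes rose. In Cdk6-/-, Cd2 was lost with median centring and with processed signals, and Cd2 and Myc with slide as a block. The Cxcr4 call in Cdk6-K43M was also lost with processed signals and without swapped arrays. Among 24 partner and inhibitor factors, none rose, 3 fell and 21 did not pass in Cdk6-/-, and 2 rose, 8 fell and 14 did not pass in Cdk6-K43M. In Cdk6-K43M, 6 rose and 3 fell with median centring (median 0.10 against -0.13), and Mef2c, Pou2f1 and Foxo3 were the 3 that fell. Mef2c, a MADS-box factor of lymphoid progenitors, was -0.61, -0.65, -0.46 and -0.72 in Cdk6-/- and -1.08, -1.19, -0.70 and -1.66 in Cdk6-K43M. Its fitted ratio was -0.67 in Cdk6-/- (SE 0.12, adjusted p = 0.0128) and -1.20 in Cdk6-K43M (SE 0.12, adjusted p = 0.000226), so it fell in both. The others in Cdk6-/- were Foxo3, a FOXO1 paralogue (-0.39, adjusted p = 0.0253), and Cbfb, the RUNX partner (-0.30, adjusted p = 0.0166). Both were lost with median centring, and Foxo3 also with processed signals. In Cdk6-K43M, Foxo3 fell by 0.50 (adjusted p = 0.00303), and the factors that rose were Tcf12, the E protein HEB (0.36, adjusted p = 0.0179), and Id2, an inhibitor of E proteins (0.54, adjusted p = 0.0195), both lost with processed signals. Between the genotypes no gene of the 6 lists passed, with 2 to 6 genes per list at an unadjusted p below 0.05 except for 1 among the interferon regulatory factors. Of all 22012 genes, 3125 had such an unadjusted p.

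**Figure D4:**
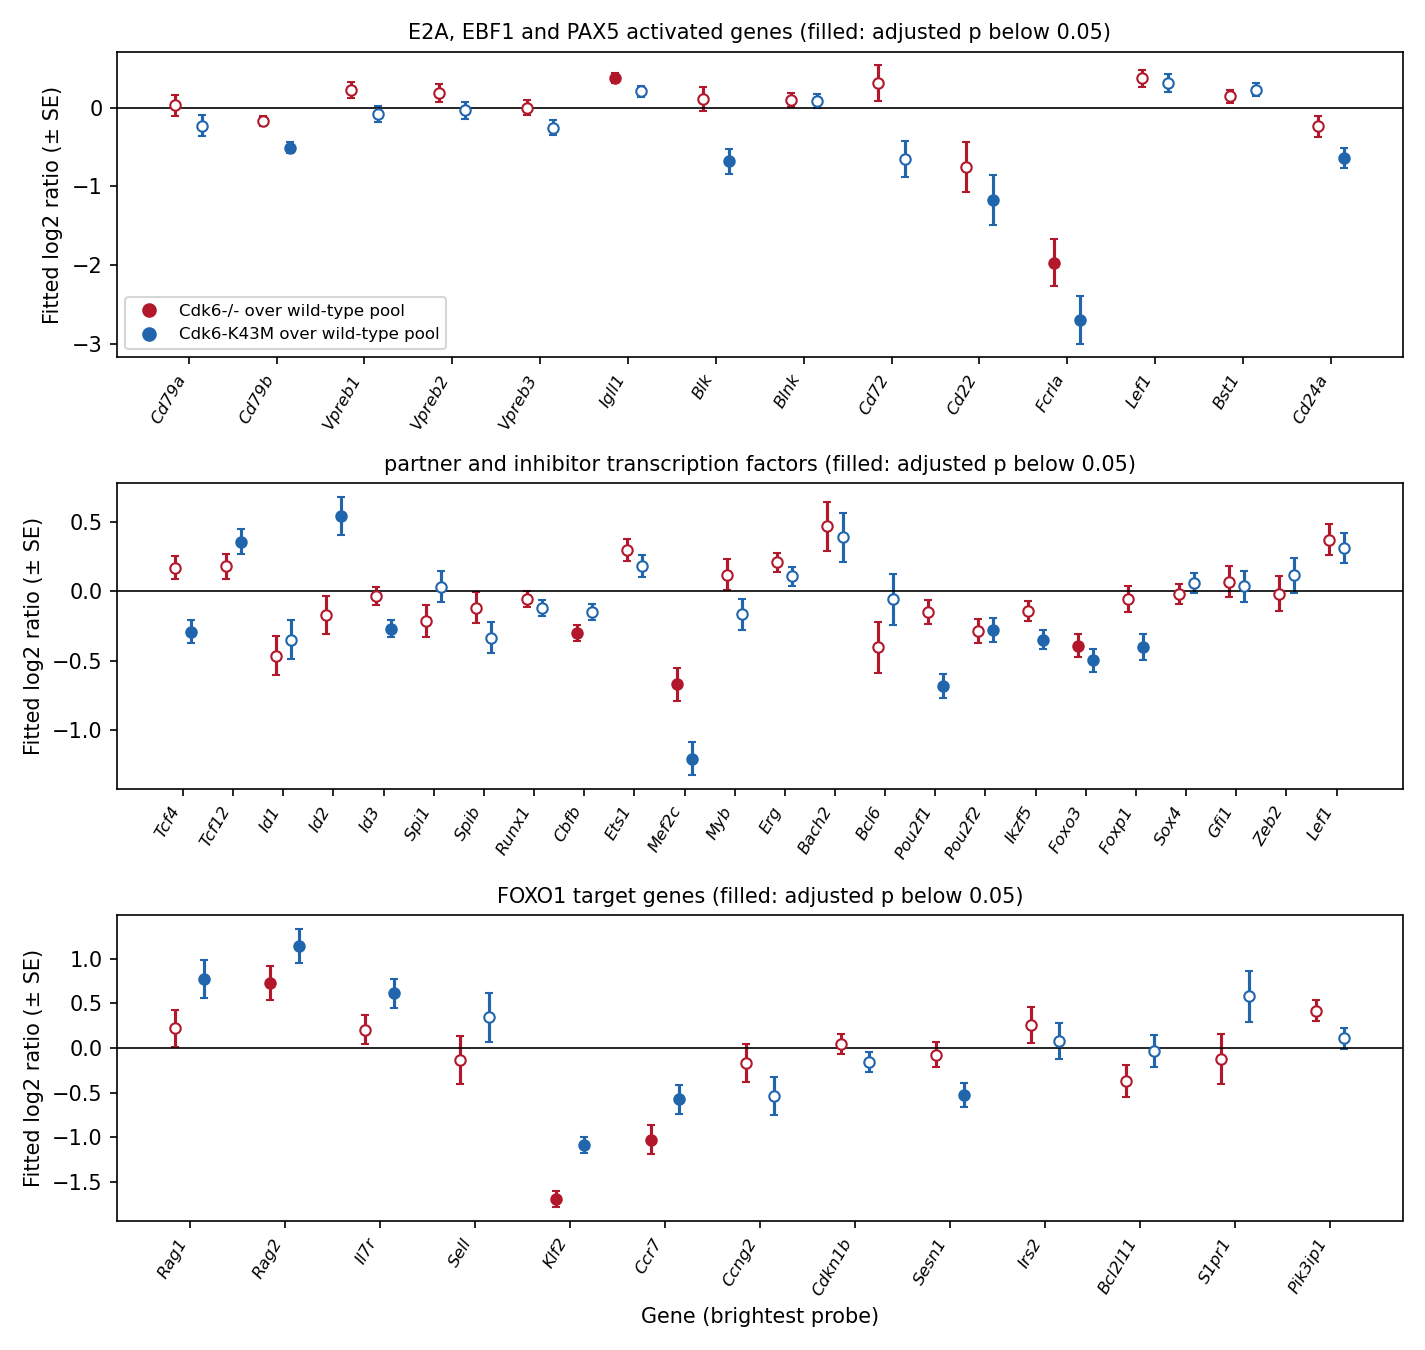
Fitted log2 ratio over the wild-type pool (vertical axes, bars ± SE) for named genes of 3 lists, Cdk6-/- in red left of Cdk6-K43M in blue, filled where the adjusted p was below 0.05. Fcrla is lowest in the upper panel, Mef2c in the middle one and Klf2 in the lower one.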

How the data were processed

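Two-colour Agilent arrays were analysed, 10 on 3 slides. Spot intensity and background were read from the scans by the authors (Feature Extraction by Agilent, version 11.5.1.1, per the file headers), and the deposited table of loess-normalised log2 values served as an alternative. Labelling used 100 ng of RNA, per the labels' protocols. Median signals were corrected by normexp (offset 50) and loess within arrays (limma 3.58.1 in R 4.3.3, with files read by data.table, version 1.17.8), probes were averaged, and 195 values of non-uniform spots were set to missing. No spot was saturated. Of all probes, 45.8 to 50.0% exceeded background clearly in a channel, and the filter kept those that did so on 3 of 4 single arrays of a genotype or in 5 of 10 wild-type channels. Transcript accessions gave 58.3% of probes a RefSeq symbol (GRCm38.p6).

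Log2 ratios of all 10 arrays were fitted in limma (lmFit, eBayes) with a coefficient per genotype and a dye term, swapped arrays entering with reversed sign, and the 8 single-sample arrays gave Cdk6-/- minus Cdk6-K43M. Benjamini-Hochberg adjustment ran over all 28182 kept probes. The swapped pools hold the samples' RNA again, so the spread may be too small. The labels do not say that a shared replicate number marks a shared animal or day, so the numbers were not taken as pairs. Deviations of same-numbered samples correlated at 0.0888, -0.0637, 0.229 and 0.154, and those of differently numbered samples at -0.246 to 0.195. Named genes were all members, Cdk6, and up to 4 called genes per list and comparison with the smallest p, plus those needed to complete a count of 5 or fewer. Pou2f2, Cd22, Ly6d, S100a8, S100a9, Ngp, Camp, Mpo and Mrc1 were named after their values were seen. One gene counted in the lists is not reported here by name or drawn. Members, lists and tests were chosen with earlier results of these data known. Promoter windows were matched by symbol for 9 of 10 genes.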

Additional observations from a re-analysis of the deposited data

Results flagged for a closer look

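In 3 of 40 groups of 4 samples, 1 sample lay far from the other 3 by Dixon's criterion, which chance meets in about 1 group of 20. On the brightest Ikzf1 probe, Cdk6-K43M replicate 3 (log2 ratio -0.149) was nearer to wild type than the other 3 samples of its genotype. For Ikzf3, Cdk6-K43M replicate 4 was lowest on the brightest probe (-0.712), and on the dimmest probe replicate 1 (0.0510) lay above the other 3; without replicate 1 that probe passed at -0.26 (adjusted p = 0.0182).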

How the results depend on the processing

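The 2 genes called in Cdk6-/- became 1 with Agilent's processed signals, median centring or the mean of a gene's probes, 0 with slide as a block or standard errors widened for the pool, and 1 to 3 when single samples were left out. The 5 called in Cdk6-K43M stayed at 4 to 6 throughout (5 to 6 without single samples). Between the genotypes 0 became 1 with all 10 arrays and a dye term, and stayed 0 without any single sample and with a replicate block, which called 0 members and 41 probes against 128. Over all probes, calls ran from 132 to 3854 in Cdk6-/- (1917 as reported), 1542 to 8200 in Cdk6-K43M (5707) and 38 to 672 between the genotypes. Median centring made 88.1% of Cdk6-K43M calls higher, against 49.7% as reported; in Cdk6-/- 63.4% against 46.2%, and between the genotypes 35.4% against 50.8%. Signs that turned belonged to values that had not passed. In Cdk6-/- they were 0.0042 (processed signals) and 0.0128 (median centring) for the second Bcl11a probe, 0.0254 (median centring) and 0.0902 (no swapped arrays) for Pax5, 0.0299 (median centring), 0.0090 (slide) and 0.0435 (no swapped arrays) for the second Tcf3 probe, and 0.0498 (mean of probes) for Ikzf1. Without swapped arrays they were also -0.147 for Tcf3, 0.0597 for the second Ikzf3 probe, and -0.0699 and -0.112 for the Foxo1 probes. In Cdk6-K43M, median centring gave 0.0696 for Pax5, 0.0895 and 0.108 for Foxo1, 0.0994 for the second Bcl11a probe and 0.0737 for Irf8, and dropping swapped arrays gave 0.0279 for Pax5, -0.0672 for Tcf3 and -0.0335 for the third Bcl11a probe. Between the genotypes, median centring gave -0.0268 for Ikzf1 and -0.0457 for the second Bcl11a probe. Without single samples, the Cdk6-/- value ran from -0.0517 to 0.0084 for the second Tcf3 probe, -0.0376 to 0.0978 for the second Foxo1 probe and -0.0630 to 0.0138 for the second Bcl11a probe, and the difference between the genotypes from -0.0148 to 0.125 for Pax5, -0.0745 to 0.0210 for the second Tcf3 probe and -0.0146 to 0.334 for Irf4. The causes were not tested. The pool of wild-type RNA is 1 sample, all member probes were well above background, and the number of arrays limits precision.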
